A study of Mus musculus with 20 samples.

Results

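Markers of proprioceptors and of large myelinated mechanoreceptors were compared between lumbar and sacral dorsal root ganglia (DRG) of embryonic mice. The markers were 10 genes listed by symbol: Pvalb, Nefh, Nefm, Nefl, Calb1, Runx3, Etv1, Heg1, Esrrg and Spp1. Each matched 1 identifier among the 37620 genes of the expression table, and all 10 were among the 14529 genes expressed highly enough to be tested. RNA was measured in whole DRG of C57Bl6 embryos at E18.5, when the ganglia hold neurons together with their glia, vessels and connective tissue. Each of 10 donor embryos, 5 male and 5 female, with no transgene or treatment named in the labels, gave 1 library from the L4-5 ganglia (lumbar) and 1 from the L6-S1 ganglia (called sacral here). The 20 libraries therefore formed 4 groups of 5, by level and sex, and donors are named M1, M3, M5, M7, M8, F3, F7, F8, F9 and F10.

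Proprioceptors are sensory neurons that carry information on muscle length and tension from muscle spindles and tendon organs, and large myelinated mechanoreceptors carry touch from the skin. Both have wide axons whose calibre is built by neurofilaments, and both depend on thick myelin for fast conduction. The transcription factors Runx3 and Etv1 act in the proprioceptor lineage, which depends on the neurotrophin-3 receptor TrkC, while parvalbumin is the usual marker of these neurons after they have matured.

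Expression is given as log2 RPKM (reads scaled for gene length and for the size of the library, on a log2 scale), so that levels of different genes can be compared. Between 19403023 and 39257771 reads per library could be recovered from the values. Mitochondrial ribosomal RNA (rRNA) took between 18.1% and 61.4% of them and was highest in donors M5, F7 and F8, so the counts of genes given first are repeated without these donors. All 12 pan-neuronal genes and all 12 genes of Schwann cells and satellite glia were tested, as the tissue label requires. Of the spinal cord markers, Mnx1 and Chat were below the limit for testing, while Slc5a7 was tested, with a median of 1.21 RPKM in lumbar and 2.80 RPKM in sacral DRG, and was higher in the sacral library of 10 donors (limma adjusted p = 0.00213). Of the autonomic markers, Dbh, Hand2 and Phox2a were below this limit, while Slc18a2 was tested, with medians of 3.37 and 3.71 RPKM. The part of spinal cord and autonomic cells in the results was not tested. Skeletal muscle genes were present in every library, with a summed level between 21.5 and 442 RPKM.

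Of the 10 genes, 5 were upregulated in lumbar DRG and 1 was upregulated in sacral DRG when the sexes were pooled (limma with donor as a block, Benjamini-Hochberg adjusted p of at most 0.05). Parvalbumin, the 3 neurofilament subunits and Etv1 were lower in sacral DRG, and Calb1 was higher. Among all tested genes 4.03% were lower in sacral DRG and 2.7% were higher by the same criterion. The median difference, sacral minus lumbar, was -0.61 over the 10 genes and -0.05 over all tested genes. The 10 genes were chosen with earlier results of these data known, so these comparisons with all tested genes are descriptions only. The count of 5 lower and 1 higher was the same without donors M5, F7 and F8, although Heg1 then took the place of Calb1. In whole ganglia, fewer cells of a type and less RNA per cell cannot be told apart.

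**Figure D1:**
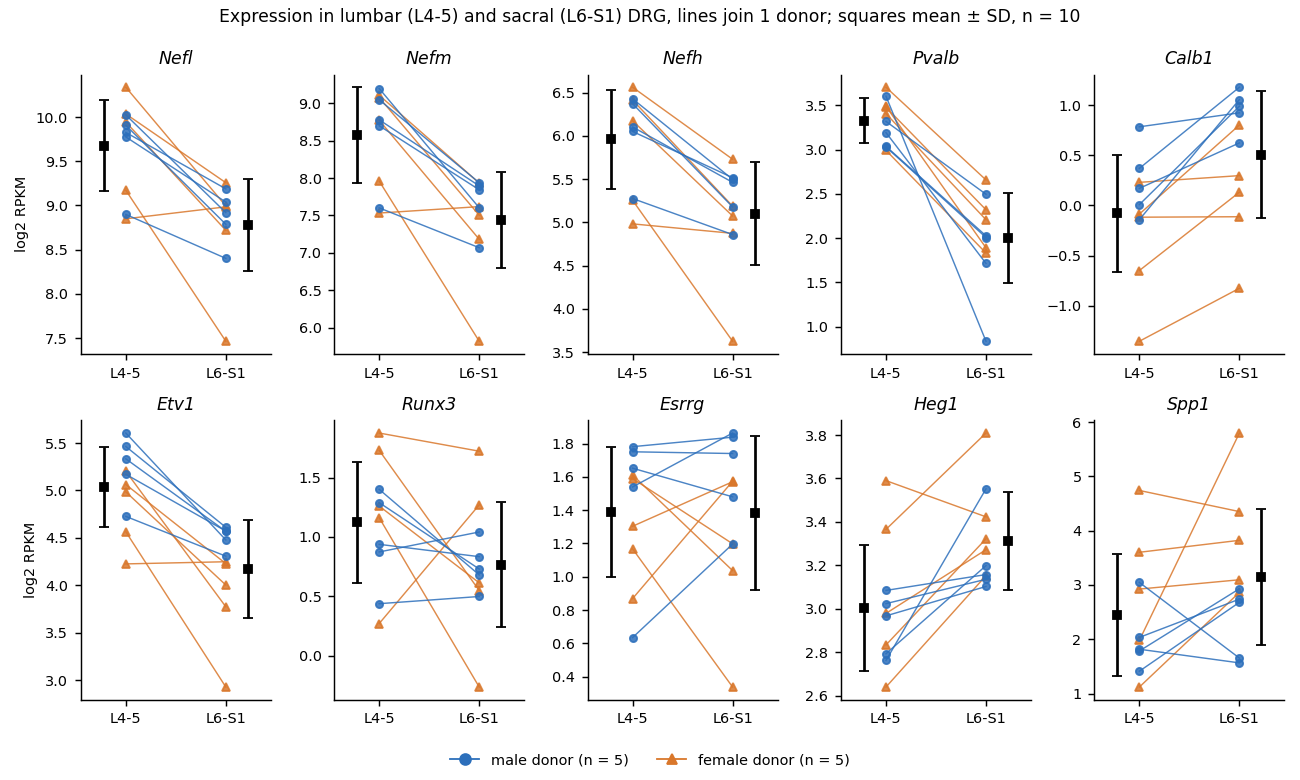
Expression of the 10 genes in log2 RPKM (y axis, its own range in each panel) in lumbar (L4-5) and sacral (L6-S1) DRG, with a line for each donor and squares for the mean ± SD of 10 libraries. The lines of Pvalb fall in all 10 donors with no overlap between the levels, whereas those of Esrrg, Runx3 and Spp1 go both ways.

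Pvalb encodes parvalbumin, a cytosolic calcium-binding protein of fast-firing neurons (ENSMUSG00000005716, mm9 chr15:78021544-78036830, minus strand). In lumbar DRG its level was 3.32, 3.19, 3.04, 3.60 and 3.03 log2 RPKM in males M1, M3, M5, M7 and M8. In the lumbar DRG of females F3, F7, F8, F9 and F10 it was 3.41, 3.49, 3.48, 3.71 and 2.99 log2 RPKM. In sacral DRG the same donors had 2.496, 1.71, 2.03, 0.83 and 2.01 log2 RPKM in males and 2.21, 1.89, 2.32, 2.66 and 1.83 log2 RPKM in females. Every sacral value lay below every lumbar value, which was so for 0.0757% of the tested genes. These levels rested on 140 to 481 reads per lumbar library and on 51 to 187 reads per sacral library. Sacral expression was lower by a log2 difference of -1.33 ± 0.15 (SE; 95% confidence interval -1.63 to -1.02), or 2.51-fold, with an adjusted p of 1.26e-05 (limma). It was lower in 10 of 10 donors, and the difference was widest in M7 (-2.77), whose sacral library had 51 reads of Pvalb and the highest summed level of skeletal muscle genes among sacral libraries, 217 RPKM. Muscle can also express Pvalb after birth, and its level in embryonic muscle was not measured here. The summed muscle level was lower in the sacral library of 7 donors, and its part in the result was not tested. Lower Pvalb was called under each of 24 alternatives, with differences between -1.40 and -0.97.

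The 3 neurofilament subunits, light (Nefl), medium (Nefm) and heavy (Nefh), co-assemble into the filaments that fill large axons, and they were the most abundant of the 10 genes at both levels. Nefl (ENSMUSG00000022055, mm9 chr14:68701920-68707152, plus strand) ranged from 8.85 to 10.34 log2 RPKM in lumbar DRG, with a mean of 9.68 ± 0.51 (SD, n = 10). In sacral DRG Nefl ranged from 7.46 to 9.26 log2 RPKM, with a mean of 8.78 ± 0.52. The ranges overlapped because of low lumbar values in M5, F7 and F8, and the lowest sacral value was that of F7. The difference was -0.90 ± 0.18 (SE), or 1.87-fold lower in sacral DRG, with an adjusted p of 0.00687 (limma) and a fall in 9 of 10 donors.

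Nefm (ENSMUSG00000022054, mm9 chr14:68700647-68742903, minus strand) had a lowest, median and highest level of 7.53, 8.78 and 9.198 log2 RPKM in lumbar DRG. In sacral DRG the same values were 5.82, 7.61 and 7.94 log2 RPKM. Apart from the lumbar libraries of M5 and F8, every lumbar value lay above every sacral value. Nefm showed the widest difference of the subunits, -1.14 ± 0.21 (SE), or 2.20-fold, with an adjusted p of 0.00381 (limma), in 9 of 10 donors. Nefm and Nefl share 1108 exon bases on opposite strands, and as the use of strand in counting is not stated, reads in these bases cannot be assigned to either gene.

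Nefh (ENSMUSG00000020396, mm9 chr11:4838757-4848067, minus strand) encodes the subunit with a long phosphorylated tail. Its lowest, median and highest levels were 4.98, 6.14 and 6.56 log2 RPKM in lumbar DRG. The sacral values were 3.63, 5.18 and 5.73 log2 RPKM. Sacral Nefh was below lumbar Nefh in 10 of 10 donors, as were 1.95% of all tested genes, though in F8 by only -0.11. The difference was -0.86 ± 0.18 (SE), or 1.82-fold, with an adjusted p of 0.00871 (limma). Without the donor block, Nefh (adjusted p = 0.0889) and Nefl (adjusted p = 0.0639) no longer passed the threshold in limma, while over all alternatives these p-values ranged from 3.37e-05 to 0.0889 and from 7.26e-05 to 0.0639.

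Donor F8 stood apart in the neurofilaments. Its Nefm and Nefl differences were positive, at 0.09 and 0.14, against -0.53 to -2.14 and -0.50 to -1.71 in the other donors. The mitochondrial rRNA share was 43.7% in its lumbar and 37.7% in its sacral library. Its lumbar library had the highest summed muscle level of all, 442 RPKM, and a summed pan-neuronal level of 1071 RPKM against 1244 RPKM in its sacral library. The part of these features in the neurofilament values was not tested. Without F8, the differences of Nefl, Nefm and Nefh were at their widest among the fits that left out 1 donor, at -1.04, -1.31 and -0.97.

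**Figure D2:**
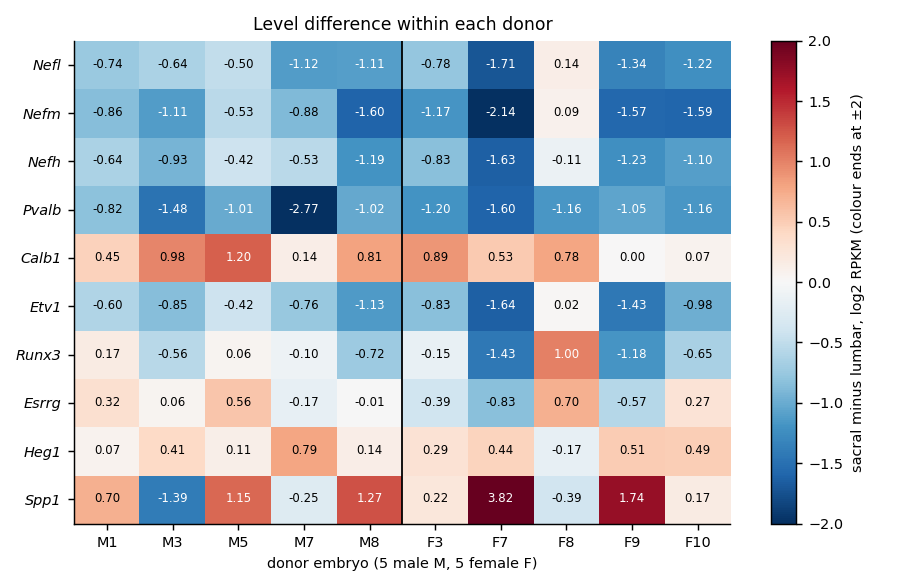
Sacral minus lumbar difference in log2 RPKM for each gene (rows) in each donor (columns), with colour from blue (lower in sacral) to red (higher in sacral). Pvalb and Nefh are negative and Calb1 is positive in all 10 donors, and the F8 column is near 0 for the neurofilaments and Etv1.

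The 3 neurofilament genes did not fall by the same amount. A ratio of 2 genes within 1 library does not depend on how that library was scaled, and 4 such ratios were tested by a two-sided exact permutation test that flips signs over donors, adjusted over the 4. The log2 ratio of Nefh to Nefm was -2.62 ± 0.13 (SD, n = 10) in lumbar and -2.34 ± 0.18 in sacral DRG. It rose by 0.28 ± 0.21 and was higher in the sacral library of 9 donors, F8 being the exception (exact permutation p = 0.00781, adjusted 0.0312). The log2 ratio of Nefm to Nefl was -1.10 ± 0.19 in lumbar and -1.34 ± 0.21 in sacral DRG, lower in the sacral library of 9 donors, M7 being the exception, with a mean change of -0.24 ± 0.24 (exact permutation p = 0.0195, adjusted 0.0391). The ratio of Nefh to Nefl changed by 0.04 ± 0.24 and was lower in 4 of 10 donors (exact permutation p = 0.67, adjusted 0.67). Nefm was thus the subunit that fell relative to the other two. Both calls depended on single donors. The Nefm to Nefl ratio did not pass without M3, M8, F3, F7 or F10 (exact permutation, adjusted p from 0.0521 to 0.0781, mean change from -0.21 to -0.22), and the Nefh to Nefm ratio did not pass without M8, F3, F7 or F10 (exact permutation, adjusted p from 0.0521 to 0.0625, mean change from 0.25 to 0.27). The exon bases shared by Nefm and Nefl also enter these ratios.

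Pvalb also fell relative to Nefh on average, though not past the threshold. The log2 ratio of Pvalb to Nefh was -2.64 ± 0.64 (SD, n = 10) in lumbar DRG and -3.10 ± 0.80 in sacral DRG. The change was -0.47 ± 0.73, negative in 7 of 10 donors (exact permutation p = 0.041, adjusted 0.0547), and the value of M7, -2.24, was the lowest. Without M7 the mean change was -0.27, and without F9 it was -0.54 and passed (exact permutation, adjusted p = 0.0469).

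**Figure D3:**
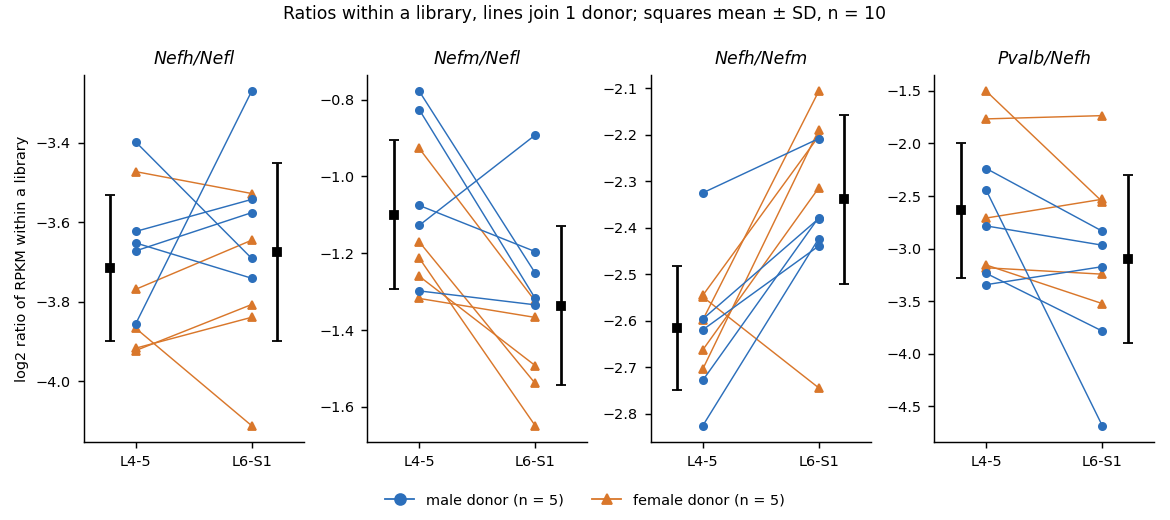
Log2 ratios of 2 genes within 1 library (y axis, its own range in each panel) in lumbar (L4-5) and sacral (L6-S1) DRG, with a line per donor and squares for the mean ± SD of 10 libraries. Nefm to Nefl falls in 9 donors and Nefh to Nefm rises in 9, whereas Nefh to Nefl changes by 0.04 on average.

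Calb1 (ENSMUSG00000028222, mm9 chr4:15808411-15835211, plus strand) encodes calbindin, a calcium-binding protein found in some large mechanoreceptors, and it was the only 1 of the 10 genes upregulated in sacral DRG. It was also the gene with the lowest level. In lumbar DRG the lowest, median and highest values were -1.36, -0.04 and 0.79 log2 RPKM, and in sacral DRG they were -0.83, 0.71 and 1.18. The ranges overlapped widely, while each donor had the higher value in its sacral library, by 0.0047 in F9 to 1.20 in M5. The difference was 0.59 ± 0.17 (SE), or 1.501-fold, with an adjusted p of 0.0449 (limma), from 46 to 239 reads per lumbar and 63 to 329 reads per sacral library. This call was close to the threshold and was lost in 8 of the 10 fits that left out 1 donor, all but those without F7 and without M7, with limma adjusted p-values from 0.0397 to 0.139 and differences from 0.53 to 0.66. Over all 23 alternatives the limma adjusted p of Calb1 ranged from 0.00213 to 0.204, and 10 alternatives called it.

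Etv1, an ETS-family transcription factor required for proprioceptors to form their connections, was lower in sacral DRG (ENSMUSG00000004151, mm9 chr12:39505967-39594802, plus strand). Its lowest, median and highest levels were 4.23, 5.12 and 5.61 log2 RPKM in lumbar DRG and 2.93, 4.28 and 4.61 log2 RPKM in sacral DRG. Only the lumbar libraries of F7 and F8 lay within the sacral range. The difference was -0.86 ± 0.14 (SE), or 1.82-fold, with an adjusted p of 0.000907 (limma), and it was negative in 9 of 10 donors, F8 (0.02) being the exception. The call held under each of the 24 alternatives, with differences between -0.99 and -0.50.

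Runx3, the Runt-family factor that specifies TrkC-positive neurons, did not pass the threshold (ENSMUSG00000070691, mm9 chr4:134676567-134733905, plus strand). It ranged from 0.27 to 1.88 log2 RPKM in lumbar DRG, with a median of 1.21, and from -0.27 to 1.72 log2 RPKM in sacral DRG, with a median of 0.70. The difference was -0.36 ± 0.19 (SE; 95% confidence interval -0.76 to 0.05; limma adjusted p = 0.265), negative in 7 of 10 donors and largest in the opposite direction in F8 (1.0). Without F8 it was -0.54 with an adjusted p of 0.0397 (limma), the only 1 of 23 alternatives that called Runx3, against a highest adjusted p of 0.983.

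Esrrg, an orphan nuclear receptor of the estrogen-related group, had nearly the same mean at both levels (ENSMUSG00000026610, mm9 chr1:189432670-190038764, plus strand). The mean was 1.39 ± 0.39 log2 RPKM (SD, n = 10) in lumbar and 1.38 ± 0.46 in sacral DRG. The difference was -0.01 ± 0.14 (SE; 95% confidence interval -0.31 to 0.29; limma adjusted p = 0.985), with 5 donors lower and 5 higher. The interval does not reach the difference of Etv1 or of any neurofilament subunit. Its sign turned with the scaling, to 0.01 when libraries were centred on all tested genes and to 0.35 when they were centred on the pan-neuronal genes.

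Heg1 and Spp1 are proprioceptor markers that other cells express as well. Heg1 (ENSMUSG00000075254, mm9 chr16:33684552-33771662, plus strand), a transmembrane protein also made by endothelium, had a median of 2.97 log2 RPKM in lumbar DRG (range 2.64 to 3.59). In sacral DRG its median was 3.24 log2 RPKM (range 3.10 to 3.81). The difference was 0.31 ± 0.10 (SE; limma adjusted p = 0.0553), positive in 9 of 10 donors, and it passed the threshold without F8 (0.37, limma adjusted p = 0.0132) and without M5, F7 and F8 (0.39, limma adjusted p = 0.0242), within a range of 0.00479 to 0.216 over all alternatives. Of the 4 endothelial genes tested, Cdh5 and Tek were higher in sacral DRG, Pecam1 and Kdr did not pass, and the summed level of all 6 on the list was 23.1 to 48.3 RPKM in lumbar and 33.1 to 59.7 RPKM in sacral DRG, higher in the sacral library of 9 donors. The part of endothelium in the Heg1 values was not tested. Heg1 shares 318 exon bases with Gm15658 on the other strand.

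Spp1 (ENSMUSG00000029304, mm9 chr5:104864137-104870069, plus strand), the secreted glycoprotein osteopontin, varied more between libraries than any other of the 10 genes. It ranged from 1.12 to 4.74 log2 RPKM in lumbar DRG and from 1.56 to 5.80 log2 RPKM in sacral DRG, with medians of 2.0 and 2.9. The difference was 0.70 ± 0.35 (SE; 95% confidence interval -0.03 to 1.44; limma adjusted p = 0.227), positive in 7 of 10 donors, and none of 24 alternatives called it. The highest values were those of sacral F7 (2117 reads) and lumbar F8 (1827 reads). Bone and cartilage genes, the tissue in which osteopontin is best known, had their highest summed level, 128 RPKM, in sacral F7 and 90.8 RPKM in lumbar F8, the highest lumbar value, against a median of 17.6 RPKM in lumbar and 40.8 RPKM in sacral DRG. Of that list of 10, all 5 tested genes had positive differences, with a median of 1.36, and Col2a1 was called higher in sacral DRG (0.80 ± 0.16, limma adjusted p = 0.00554). Ibsp, bone sialoprotein, had a median of 6.51 RPKM in lumbar (range 2.18 to 72.1) and 22.1 RPKM in sacral DRG (range 4.20 to 88.6), a difference of 1.47 ± 0.46 (limma adjusted p = 0.0575). Sp7 (2.0 ± 0.72, limma adjusted p = 0.0967) and Acan (1.36 ± 0.45, limma adjusted p = 0.0745) did not pass, and Bglap, which was not tested, had a median of 0 RPKM at both levels. The summed level of 7 macrophage genes was also highest in sacral F7, at 42.2 RPKM, and in lumbar F8 among lumbar libraries, at 29.9 RPKM. The part of these tissues in the Spp1 values was not tested.

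The order of the 10 genes by level was compared within each spinal level, with neighbours tested by a two-sided exact permutation test that flips signs over donors, adjusted over 18 pairs. In lumbar DRG the order of mean log2 RPKM was Nefl (9.68), Nefm (8.58), Nefh (5.96), Etv1 (5.03), Pvalb (3.33), Heg1 (3.0), Spp1 (2.45), Esrrg (1.39), Runx3 (1.12) and Calb1 (-0.08). In sacral DRG it was Nefl (8.78), Nefm (7.44), Nefh (5.10), Etv1 (4.17), Heg1 (3.31), Spp1 (3.15), Pvalb (2.0), Esrrg (1.38), Runx3 (0.77) and Calb1 (0.51). Neighbours not separated beyond their spread were Heg1 and Spp1 (exact permutation, adjusted p = 0.123) and Esrrg and Runx3 (adjusted p = 0.0586) in lumbar DRG, and Heg1 and Spp1 (adjusted p = 0.674) and Runx3 and Calb1 (adjusted p = 0.203) in sacral DRG. Pvalb was followed by Heg1 and Spp1 in lumbar DRG and came after both in sacral DRG, while the first 4 places were the same.

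Neuronal genes as a whole were also somewhat lower in the sacral libraries. The median level of the 12 pan-neuronal genes changed by -0.36 ± 0.41 (SD, n = 10) from lumbar to sacral DRG and was lower in 7 of 10 donors (exact sign-flip permutation p = 0.0234). The differences were therefore computed again with each library centred on this median, which moved the median of all tested genes from -0.05 to 0.31. Pvalb (-0.97 ± 0.20), Nefm (-0.78 ± 0.08), Nefl (-0.54 ± 0.08), Nefh (-0.50 ± 0.06) and Etv1 (-0.50 ± 0.07) were still lower in sacral DRG relative to the pan-neuronal genes, with limma adjusted p-values from 3.38e-06 to 0.00538. The standard errors (SE) of the neurofilaments and Etv1 were smaller than on the deposited scale. Calb1 (0.95 ± 0.17), Heg1 (0.67 ± 0.20) and Esrrg (0.35 ± 0.12) were then called higher (limma adjusted p = 0.00213, 0.0257 and 0.0341), and Runx3 stood at 0.00 ± 0.13. Over all genes the split was 586 lower and 392 higher on the deposited scale, 130 lower and 3766 higher after this centring, and 410 lower and 437 higher after quantile normalization. Of these 2 genes not called on the deposited scale, Esrrg was called under no other alternative, whereas Heg1 was also called under 4 alternatives that kept that scale.

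**Figure D4:**
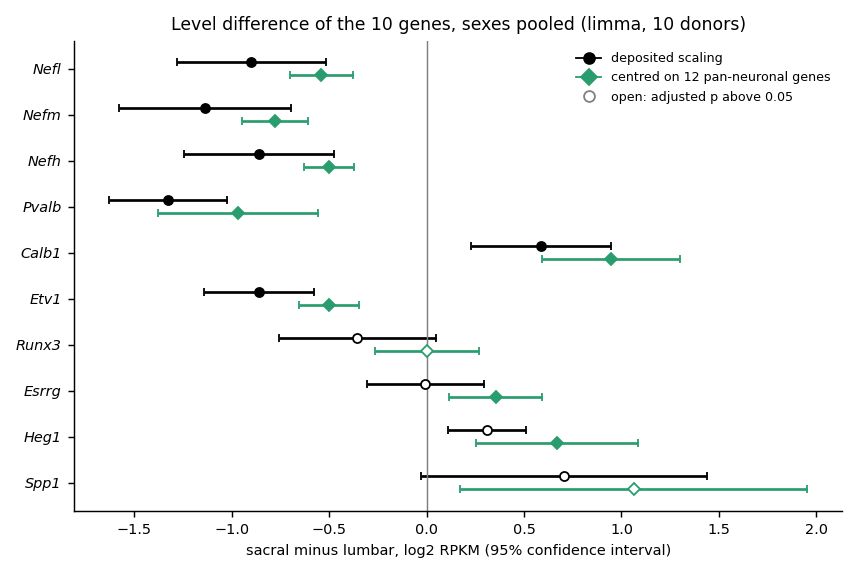
Sacral minus lumbar difference in log2 RPKM (x axis) with its 95% confidence interval for each gene, on the deposited scale (black) and with libraries centred on 12 pan-neuronal genes (green), where open symbols did not pass an adjusted p of 0.05. Pvalb, the neurofilaments and Etv1 are lower in sacral DRG on both scales, and Esrrg moves from -0.01 to 0.35.

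For 9 of the 10 genes, males and females differed between levels in the same direction on average, the exception being Esrrg (0.15 ± 0.20 SE in males and -0.16 ± 0.20 in females), although fewer genes passed in each sex with 5 donors. In males only Pvalb was called, at -1.42 ± 0.21 (SE; limma adjusted p = 0.00122), where 0.289% of tested genes were called lower. In females Pvalb (-1.23 ± 0.21, adjusted p = 0.00509), Etv1 (-0.97 ± 0.19, adjusted p = 0.0185) and Nefm (-1.28 ± 0.30, adjusted p = 0.047) were called by limma, where 0.695% of tested genes were called lower. The neurofilaments, Etv1 and Pvalb were lower in sacral DRG in all 5 males, and in females in 5 donors for Pvalb and Nefh and in 4 for Nefm, Nefl and Etv1. The count in males was 5 without M5, F7 and F8, and it was 2 without F7 or without F8. In females 4 genes were called without M5, F7 and F8 (Nefh, Nefm, Nefl and Etv1), and Pvalb was not among them. The count in females was 0 without F7, 1 without F3, F9 or F10, 2 without any 1 of the males, and 6 without F8. Over all 14529 tested genes, 67 were called in males, 91 without M5, F7 and F8, 73 without F7 and 133 without F8. In females 128 were called, 327 without M5, F7 and F8, 30 without F7 and 731 without F8. This female count was 27 to 49 without F3, F9 or F10 and 75 to 155 without any 1 of the males. Relative to the pan-neuronal genes, the neurofilaments and Etv1 were called lower in each sex, but Pvalb was called in neither. On that scale 26 of all 14529 tested genes were called lower in males and 49 in females.

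Whether the level difference itself differed between the sexes was tested with the interaction. None of the 10 genes passed (limma, smallest adjusted p = 0.995), none had an unadjusted p below 0.05, and among all genes 0.0% passed and 470 had an unadjusted p below 0.05. For Pvalb the difference between levels was, female minus male, 0.19 ± 0.29 (SE; 95% confidence interval -0.42 to 0.79). For the neurofilaments it was between -0.28 and -0.16, and for Spp1, the least precise, 0.82 ± 0.71.

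Female and male donors were also compared within each level, and no gene of the 10 was called at either (limma; 1 had an unadjusted p below 0.05 in lumbar and 3 in sacral DRG). In lumbar DRG, where 0.33% of tested genes were called, the smallest limma adjusted p of the 10 was 0.595, that of Calb1. In sacral DRG, where 1.01% were called, Calb1 was 0.06 ± 0.60 log2 RPKM (SD, n = 5) in females and 0.96 ± 0.21 in males, a difference of -0.90 ± 0.30 (SE; limma adjusted p = 0.157). Etv1 was 3.84 ± 0.54 in sacral DRG of females and 4.51 ± 0.12 in males (difference -0.67 ± 0.24, limma adjusted p = 0.18), and it passed without M5, F7 and F8 (-0.56 ± 0.13, limma adjusted p = 0.0371) and with the mitochondrial rRNA share as a covariate (-0.58 ± 0.16, limma adjusted p = 0.0494), within a range of 0.0371 to 0.402 over the alternatives. Spp1 was 3.99 ± 1.17 in females and 2.31 ± 0.65 in males (difference 1.67 ± 0.62, limma adjusted p = 0.201). Of the 3 donors with the highest mitochondrial rRNA share, F7 and F8 were female and M5 was male.

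Across the 20 libraries the neurofilaments and Etv1 varied together, within a level Esrrg, Runx3 and Calb1 also varied with them, and Pvalb did not. Over the 20 libraries Pearson's r was 0.98 between Nefh and Nefm, 0.98 between Nefm and Nefl, 0.96 between Nefh and Nefl and 0.91 between Nefh and Etv1. After the mean of each level was subtracted these values were 0.97, 0.96, 0.94 and 0.85. On the same measure r was 0.88 between Esrrg and Etv1, 0.86 between Esrrg and Nefm, 0.83 between Runx3 and Nefl and 0.83 between Calb1 and Etv1. The lowest r of each with the neurofilaments and Etv1 was 0.80 for Esrrg (Nefh), 0.61 for Runx3 (Etv1) and 0.60 for Calb1 (Nefl). The corresponding r between Pvalb and Nefh went from 0.51 to -0.05, and that between Pvalb and Etv1 from 0.54 to -0.18. Heg1 and Spp1 ran opposite to Nefh, with r of -0.72 and -0.54 after the level means were subtracted. The libraries share their depth, mitochondrial rRNA share and donor, so these values are descriptions only.

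The 5 genes most like Pvalb over the 20 libraries were Ntf3 (r = 0.86), the identifiers ENSMUSG00000093550 (0.85) and ENSMUSG00000093789 (0.85), for which no symbol was found, Ubac1 (0.85) and Nmb (0.84). Ntf3 encodes neurotrophin-3, the ligand of TrkC. After the level means were subtracted, r to Pvalb was 0.65 for Ntf3 and between 0.43 and 0.55 for the other 4. The 5 genes most like Nefh were Cacng5 (r = 0.98), Tuba4a (0.98), Cpne6 (0.97), Cplx1 (0.97) and Flot1 (0.96), and with the level means subtracted these values were 0.96 to 0.98. Both sets were picked for their r over the 20 libraries, which includes the difference between levels, so these values of r are not compared between Pvalb and Nefh.

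Other genes of large myelinated sensory neurons were read from a list of 25, of which 24 were found and 21 tested. The list was chosen with earlier results of these data known. Among all tested genes 4.03% were called lower in sacral DRG and 2.7% higher. Of the 21 tested genes of the list, 7 were lower in sacral DRG and 1 was higher (limma, adjusted p of at most 0.05). Their median difference was -0.39. The lower genes were Slc17a7, the vesicular glutamate transporter VGLUT1 (-1.29 ± 0.27 SE), Vsnl1, a calcium sensor (-0.81 ± 0.14), the sodium channel Scn1a (-0.71 ± 0.19), Fam19a1 (-0.70 ± 0.14), the potassium channel Kcna1 (-0.68 ± 0.19), Cntnap2, which anchors such channels beside the node (-0.66 ± 0.18), and Fxyd7, a regulator of the sodium pump (-0.53 ± 0.14). Slc17a7 ranged from 1.35 to 5.89 RPKM in lumbar and from 0.221 to 2.75 RPKM in sacral DRG and fell in 10 of 10 donors. Maf, a transcription factor of mechanoreceptors, was higher by 0.24 ± 0.07 (limma adjusted p = 0.04). Without M5, F7 and F8 the list had 13 lower and 0 higher genes, and Maf was then not called. Over all 14529 tested genes 702 were then lower and 403 higher. Without the donor block only Vsnl1 of the list was called, where 154 of all tested genes were called.

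The receptors that define these lineages did not pass the threshold. Ntrk3, the TrkC receptor of proprioceptors, was 9.90 to 16.4 RPKM in lumbar and 8.52 to 15.8 RPKM in sacral DRG, a difference of -0.18 ± 0.10 (SE; limma adjusted p = 0.284) with lower sacral values in 8 donors. Ntrk2, the TrkB receptor of a class of mechanoreceptors, was 5.71 to 10.96 RPKM in lumbar and 5.62 to 18.1 RPKM in sacral DRG, a difference of 0.28 ± 0.13 (limma adjusted p = 0.194) with lower sacral values in 2 donors. Relative to the pan-neuronal genes, 6 of the 21 were lower and 2, Maf and Ntrk2, were higher. On that scale 130 of all 14529 tested genes were lower and 3766 were higher.

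**Figure D5:**
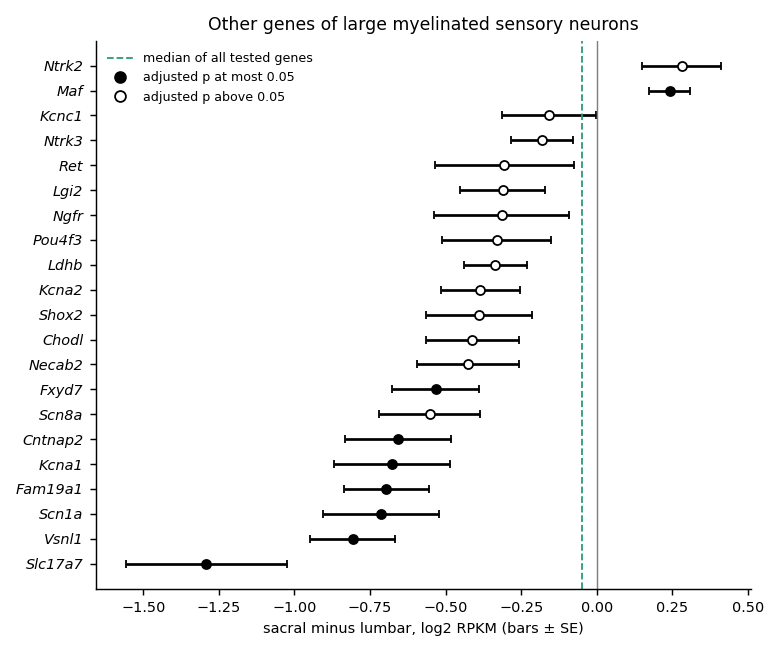
Sacral minus lumbar difference in log2 RPKM (x axis, bars ± SE) of the 21 tested genes of the list, with filled symbols for an adjusted p of at most 0.05 and a dashed line at the median of all tested genes. The symbols run from -1.29 for Slc17a7 to 0.28 for Ntrk2, with 19 of 21 below 0.

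Lists for other cell types were read in the same way. Of 12 pan-neuronal genes, Snap25 was lower (-0.60 ± 0.14) and the median difference was -0.31. Of 12 genes of nociceptors and thermosensors, Tac1 and Trpm8 were lower and Trpv1 was higher, with a median of -0.28. Of 12 genes of Schwann cells and satellite glia, 6 were lower, among them the myelin genes Mbp and Prx and their regulator Egr2, with a median of -0.37, and their summed level was 404 to 559 RPKM in lumbar and 261 to 422 RPKM in sacral DRG, lower in the sacral library of 10 donors. Relative to the pan-neuronal genes only Prx of these was called lower. The spinal cord list had 1 tested gene, Slc5a7, which was higher in sacral DRG (1.05 ± 0.18), and the autonomic list had 1, Slc18a2, which was not called. None of the 7 tested muscle genes was called (limma; 1 had an unadjusted p below 0.05). The median difference of the 10 marker genes, -0.61, was below that of each of these neuronal and glial lists. It was close to that of the muscle list, -0.57, whose 7 tested genes all had negative differences. No test was made for these comparisons.

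The regions upstream of the genes were searched for the sites of 3 of their own products, since Runx3, Etv1 and Esrrg bind DNA. RefSeq promoter sequences (GRCm38.p6, a later build than the mm9 of the expression table) were at hand for 6 of the genes, at 13 start sites, and the 250 bases before each start were read on both strands. The RUNX core TGTGGT was found at 3 of the 13 and in 14.05% of 32851 promoters, and the ETS core CCGGAA at 2 of the 13 and in 12.03%. The estrogen-related receptor site TCAAGGTCA was found at 0 of the 13 and in 0.387%. The first start of Spp1, a gene that did not pass the threshold, held both a RUNX core and an ETS core. The sequences of Pvalb and Etv1 are shown because both genes fell in sacral DRG, and that of Runx3 because it held 2 RUNX cores. Each is written 5′ to 3′ on the strand of the gene, with motif letters in capitals.
Pvalb, chr15:78206401-78206650, minus strand: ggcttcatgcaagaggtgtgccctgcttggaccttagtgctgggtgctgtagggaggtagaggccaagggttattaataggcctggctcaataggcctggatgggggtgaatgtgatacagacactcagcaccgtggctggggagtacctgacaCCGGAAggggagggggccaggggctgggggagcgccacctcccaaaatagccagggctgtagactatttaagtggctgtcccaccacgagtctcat
Etv1, chr12:38779832-38780081, plus strand: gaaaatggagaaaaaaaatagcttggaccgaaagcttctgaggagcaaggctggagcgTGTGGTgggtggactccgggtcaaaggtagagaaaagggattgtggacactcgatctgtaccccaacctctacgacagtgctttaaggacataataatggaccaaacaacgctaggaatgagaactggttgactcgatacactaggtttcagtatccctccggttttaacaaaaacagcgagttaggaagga
Runx3, chr4:135120395-135120644, plus strand: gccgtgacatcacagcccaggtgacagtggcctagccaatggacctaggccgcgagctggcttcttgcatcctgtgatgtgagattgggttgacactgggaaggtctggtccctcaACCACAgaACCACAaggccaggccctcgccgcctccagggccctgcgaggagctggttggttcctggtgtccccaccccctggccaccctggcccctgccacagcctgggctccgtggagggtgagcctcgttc
The capitals mark an ETS core in Pvalb, a RUNX core in Etv1 and both RUNX cores, read on the opposite strand, in Runx3. These matches are a description of letters and not of binding, and a second start of each of these 3 genes held none of the motifs.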

How the data were processed

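RNA was measured by sequencing in 20 libraries of whole DRG. The authors amplified total RNA (Ovation, Nextera XT), aligned reads to mm9 with Subread, counted unique reads per Ensembl gene with featureCounts, scaled them by TMM (edgeR 3.12.1), applied voom (limma 3.26.9) and deposited log2 RPKM. Every library has the same median value. Reads were recovered from the steps of the values and GENCODE M1 exon lengths (98.27% of values within 0.05 of a whole read, 28324 genes) and blanks were set to 0.5 reads. The libraries hold no molecular identifiers.

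All genes reaching a geometric mean of 1 RPKM in at least 1 group were fitted with limma 3.58.1 (R 4.3.3, statmod 1.5.0): 4 group means, donor as a block by duplicateCorrelation (consensus 0.342), eBayes with trend, two-sided p-values adjusted by Benjamini-Hochberg over 14529 genes, threshold 0.05. On simulated log2 values for this design the script was tested before use. Ratios and orders used exact sign-flip permutation tests over 10 donors (scipy). Libraries were paired because their labels name the same embryo; deviations of a donor's libraries correlated between -0.166 and 0.677. All 10 genes are named whatever their result; other genes by the lists, by a limma call, or as the 5 most correlated with Pvalb and with Nefh. The genes and lists were chosen with earlier results of these data known. Alternatives covered the block, the filter, pseudocounts, scaling, weights, a mitochondrial rRNA covariate, voom on recovered reads and leaving out donors. Leaving out 3 donors was not planned and was added after the data were seen.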

Additional observations from a re-analysis of the deposited data

Results flagged for a closer look

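Within the 40 sets of 5 libraries (10 genes in 4 groups), 3 values lay far from the other 4 of their group, measured by the gap to the nearest value over the whole range; chance alone gives about 1 in 20. Nefl was 8.90 log2 RPKM in the lumbar library of male M5, against 9.78 to 10.02 in the other lumbar males. Esrrg was 0.64 log2 RPKM in the same library, against 1.54 to 1.78. That library had the highest mitochondrial rRNA share of all, 61.4%. Heg1 was 3.55 log2 RPKM in the sacral library of male M7, against 3.10 to 3.198 in the other sacral males, and this library also had the lowest Pvalb value.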

How the results depend on the processing

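The 5 genes lower in sacral DRG kept their direction under all 24 alternatives, and Pvalb, Nefm and Etv1 their call. The cause of the changes that follow was not tested. Without a replicate block 3 of the 10 genes passed (Pvalb, Nefm and Etv1). With donor as a fixed effect 5 did, where 792 of all tested genes were called. The unpaired ratios changed no call. In males, where 1 passed, the count was 4 when centred on pan-neuronal genes (Nefh, Nefm, Nefl and Etv1, with Pvalb lost), 3 with the mitochondrial rRNA covariate and 5 with sample weights. It was 2 with the stricter filter of 4 RPKM (8077 genes tested, 7 of the 10 among them), 5 without M5, F7 and F8, and 1 to 2 leaving out 1 donor. Over all tested genes the male counts were, in the same order, 68, 71, 316, 93, 91 and 23 to 133. In females, where 3 passed, the count of the 10 was 6 when centred on pan-neuronal genes (4 lower and 2 higher, Pvalb lost), 5 with the covariate and 1 with no filter (29049 genes tested). It was 1 without the replicate block, 6 with sample weights, 5 with the stricter filter, 4 without M5, F7 and F8 (Pvalb lost), and 0 to 6 leaving out 1 donor. Over all tested genes the female counts were, in the same order, 2768 (49 lower and 2719 higher), 154, 48, 16, 1871, 215, 327 and 27 to 731. Female against male in sacral DRG called 1 gene, Etv1, with the covariate and without M5, F7 and F8, where 595 and 323 of all tested genes were called. With all genes counted, the level difference called 978 genes and between 154 (no block) and 3896 (pan-neuronal centring), 507 with no filter, 2998 with sample weights and 401 to 1594 leaving out 1 donor. Over the same alternatives the count ran from 21 to 316 in males (67 as reported), from 16 to 2768 in females (128), from 14 to 197 between the sexes in lumbar (48) and from 23 to 751 in sacral DRG (147).

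Reversed values were those of Esrrg, 0.0142 centred on all genes, 0.35 centred on pan-neuronal genes, 0.0238 with the covariate, 0.0211 with sample weights and -0.115 to 0.0768 leaving out 1 donor, of Runx3, 0.0035 when centred on pan-neuronal genes, and of the Nefh to Nefl ratio, -0.0209 to 0.0766 leaving out 1 donor. The ratio of Nefm to Nefl ran from -0.29 to -0.21, that of Nefh to Nefm from 0.25 to 0.33 and that of Pvalb to Nefh from -0.54 to -0.27 leaving out 1 donor, the last passing without F9. In 1 sex alone the smallest p of a ratio is 0.0625. Depth limits Calb1 and Pvalb most, with as few as 46 and 51 reads in a library.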
